A study of Mus musculus with 2 samples.

Results

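The 10 genes described here are the 4 Tcf/Lef transcription factors (Tcf7, Lef1, Tcf7l1 and Tcf7l2), their partner beta-catenin (Ctnnb1), and 5 proteins that control how much beta-catenin a cell keeps (Apc, Axin1, Axin2, Gsk3b and Csnk1a1). They were chosen by symbol, and all 10 of 10 were found among the 19294 genes of the deposited Drop-seq matrix. Gene names need care in this family, since the study writes Tcf4 for Tcf7l2 and Tcf3 for Tcf7l1, and the row named Tcf4 in the matrix belongs to an unrelated gene that was not used. The cells came from colon crypts of Tcf4 GfpCre/+ RosamTmG/+ mice (C57BL/6, aged 4 to 10 months, no treatment), pooled as samples 1 to 3 and samples 4 to 6 under 1 condition. In these mice GfpCre sits in the Tcf7l2 locus, which leaves 1 intact copy of Tcf7l2, and a reporter changes from membrane Tomato to membrane GFP once a cell or its ancestor has switched the locus on. The sort kept Tcf4 Lin- cells, which had not switched, and double positive cells, which carried both colours, so the level of Tcf7l2 itself was conditioned by the sort.

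Canonical Wnt signalling acts through the amount of beta-catenin. Without a Wnt ligand, a destruction complex built on Apc and Axin lets the kinases Csnk1a1 and Gsk3b mark beta-catenin for breakdown, and Tcf/Lef proteins sit on their target genes with co-repressors. When Wnt stops the complex, beta-catenin enters the nucleus and turns Tcf/Lef factors into activators. In the gut epithelium this pathway keeps crypt stem cells dividing, and in T cells Tcf7 and Lef1 are known for thymic development and for the naive and memory state.

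The levels were described in the 3 epithelial subclusters (stem cells, secretory precursors and absorptive precursors) and the 4 clusters (epithelial Pigr+ cells, natural intraepithelial lymphocytes or nIELs, induced intraepithelial lymphocytes or iIELs, and B cells) that the study assigned. Of the 1117 barcodes, 516 had such an assignment, with a median of 1126 UMIs (unique molecular identifiers, each counted as 1 captured transcript). The 106 cells of the epithelial subclusters had a median of 1606.5 UMIs and the 409 lymphocytes outside them a median of 1067, and 1 epithelial cell was in no subcluster. Of the cells of the subclusters, 14 were also listed in an IEL cluster (11 as iIELs and 3 as nIELs), and these held 101715 UMIs. They were counted as epithelial here, which left 187 nIELs, 175 iIELs and 47 B cells, and results that turned on this choice are given both ways. With the clusters as listed, these shared cells stood on both sides of epithelium against lymphocytes. The intervals of those folds take the sides as separate cells, which they were not. Epithelial markers (Epcam, keratins, Pigr and others) summed to between 17534 and 24720 CPM (UMIs of a gene or list summed over the cells of a group, per 1000000 UMIs of that group) in the subclusters and to between 78.2 and 200 in the lymphocyte groups. The T cell markers summed to between 9446 and 11466 CPM in the IELs, and to 2933 in the B cells, beside 14522 for B cell markers there. Of 33 T cell marker UMIs within the subclusters, 32 lay in absorptive precursors (211 CPM), 1 in secretory ones and 0 in the stem cells. The crypt base markers Lgr5, Ascl2 and Smoc2 were thin, with 8 UMIs over the stem cells, 3 over the secretory and 2 over the absorptive precursors. No barcode could be tied to a pool, so all cells form 1 sample, and no difference below has a replicate check or a test between animals. Intervals are 95% intervals that cover counting error only, and since the clusters were drawn from the same counts, differences between them are descriptions. Where a side had no UMI, a fold written as "at least" takes 3 counts for that side and leaves out the counting error of the other.

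The 4 factors are paralogs that share the HMG box, the domain with which they bind DNA. The stretch of 90 coding bases most alike across the family is printed here because it shows how close the genes are where they are closest, and why the counts can still tell them apart. The stretch lies within a single coding exon in each gene (build GRCm38, GENCODE annotation): chr11:52256740-52256829 on the minus strand in exon 8 of Tcf7, chr3:131200313-131200402 on the plus strand in exon 9 of Lef1, chr6:72631012-72631101 on the minus strand in exon 10 of Tcf7l1 and chr19:55919529-55919618 on the plus strand in exon 10 of Tcf7l2. Capitals mark bases that differ from Tcf7, and all are written 5′ to 3′ along the transcript.
Tcf7: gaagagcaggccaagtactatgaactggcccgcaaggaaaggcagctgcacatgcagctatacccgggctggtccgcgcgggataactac
Lef1: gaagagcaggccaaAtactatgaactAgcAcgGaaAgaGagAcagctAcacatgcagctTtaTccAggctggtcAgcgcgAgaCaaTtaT
Tcf7l1: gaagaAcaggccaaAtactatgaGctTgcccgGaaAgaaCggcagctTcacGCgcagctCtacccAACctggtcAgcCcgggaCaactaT
Tcf7l2: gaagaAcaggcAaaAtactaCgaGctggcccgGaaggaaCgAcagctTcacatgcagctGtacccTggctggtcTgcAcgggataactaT
Lef1 differed from Tcf7 at 16 of these 90 bases, Tcf7l1 at 18 and Tcf7l2 at 14. Drop-seq reads start near the 3′ end of a transcript, where the family has diverged: over the last 500 bases the longest run shared by any pair of the 4 transcripts was 12 bases. Over whole transcripts the longest shared run was 23 bases. Because each transcript is tagged once at its end, the counts were not divided by length.

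The epithelium and the IELs held different members of the family. Tcf7l1 and Tcf7l2 made up 73 of the 78 Tcf/Lef UMIs of the epithelial subclusters (93.6%, interval 85.7 to 97.9), and Tcf7 and Lef1 made up 93 of the 95 Tcf/Lef UMIs of the IELs (97.9%, 92.6 to 99.7). The split was seen in each group of cells on its own, with 11 of 13 UMIs from Tcf7l1 and Tcf7l2 for stem cells, 28 of 29 for secretory and 34 of 36 for absorptive precursors. Among lymphocytes, 67 of 68 Tcf/Lef UMIs of nIELs and 26 of 27 of iIELs came from Tcf7 and Lef1, whereas the B cells held 1 Tcf/Lef UMI in all, from Tcf7l2.

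**Figure D1:**
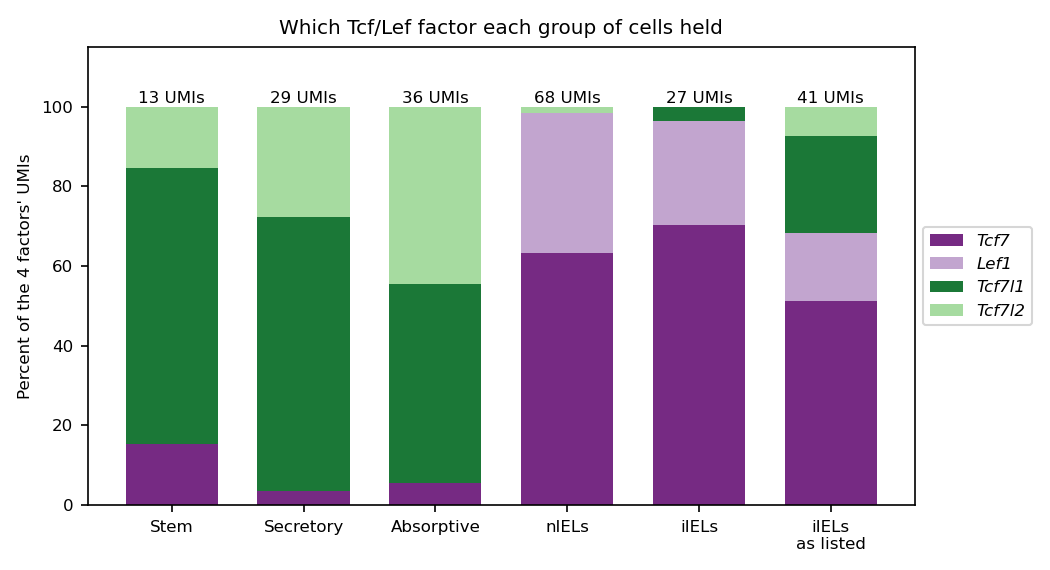
Bars give the percent of all UMIs of the 4 Tcf/Lef factors that came from each factor, for the 3 epithelial subclusters, for nIELs and iIELs without the cells that are also in a subcluster, and for iIELs as listed by the study, with the number of UMIs above each bar. Green (Tcf7l1 and Tcf7l2) fills 84.6% or more of each epithelial bar and purple (Tcf7 and Lef1) 96.3% or more of the nIEL and iIEL bars, while the iIEL bar as listed is 31.7% green.

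The iIEL cluster as listed looked different only through the cells it shared with the epithelium. With them, 13 of its 41 Tcf/Lef UMIs (31.7%, 18.1 to 48.1) were from Tcf7l1 and Tcf7l2, and without them 1 of 27 (3.70%, 0.0937 to 19.0). In the nIEL cluster the 3 shared cells added no Tcf/Lef UMI, and the count stayed at 68.

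Against lymphocytes, 3 members were higher in the epithelial subclusters (Tcf7l1, Tcf7l2 and Ctnnb1), 2 were lower (Tcf7 and Lef1), and 4 with at least 20 UMIs were not called (Apc, Axin2, Gsk3b and Csnk1a1). A gene was called here when its fold was at least 2 in either direction with an interval clear of 1, among genes with at least 20 UMIs over both sides. That rule called 22.2% of the 6172 genes tested as higher and 22.0% as lower, so 5 of 9 members called is near the background, and the comparison is of interest for which members moved in which direction. The median fold was 1.28 over those 9 members and 0.945 over all genes tested. Axin1, with 17 UMIs, was under the minimum. Mitochondrial genes held 5.80% of the epithelial and 2.47% of the lymphocyte UMIs, and 7 epithelial cells of more than 10000 UMIs held 35.4% of the epithelial UMIs. The iIEL cluster as listed held 4 of those 7 deep cells, and leaving all 7 out kept all 5 calls. Thinning every cell to 700 UMIs kept that of Ctnnb1 alone, with Tcf7l1 at 50.2 (lower limit 4.92) and Tcf7l2 at 19.2 (lower limit 2.60) on fewer than 20 UMIs, Tcf7 at 0.260 (0.0309 to 1.02) and Lef1 at no more than 0.819. Totals without mitochondrial and ribosomal protein genes also kept all 5 calls. What part the mitochondrial share had beyond the totals was not tested.

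**Figure D2:**
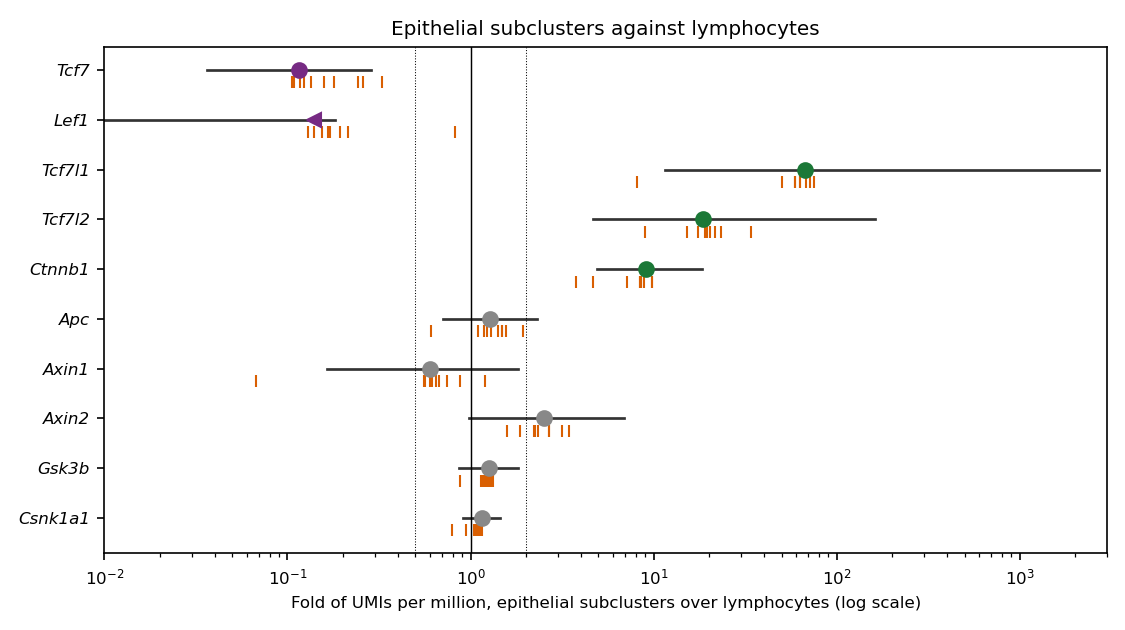
Points give the fold of CPM in the 3 epithelial subclusters over the lymphocytes for each gene, on a log axis, with 95% counting intervals as bars. Green points are called higher, purple lower and grey not called, the triangle for Lef1 is an upper bound against a count of 0, dotted lines mark 2-fold, and orange ticks below each point show the other ways of processing. Tcf7l1 and Tcf7l2 lie to the right at 67.5-fold and 18.7-fold, Tcf7 to the left at 0.116-fold, and the kinases lie close to 1.

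Tcf7l1, which acts mainly as a repressor of Wnt targets, was counted 9 times in stem cells, 20 times in secretory and 18 times in absorptive precursors, against 0 in nIELs, 1 in iIELs and 0 in B cells. As levels these were 130 CPM (59.6 to 247) in stem cells, 155 (94.9 to 240) in secretory and 119 (70.3 to 187) in absorptive precursors, 3 intervals that overlap throughout. The fold over lymphocytes was 67.5 (11.5 to 2722), with its upper limit set by the 1 lymphocyte UMI. With the clusters as listed the fold was 8.12, with a lower limit of 4.05, since 9 of the 10 Tcf7l1 UMIs of the iIEL cluster lay in cells that are also in a subcluster.

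Tcf7l2, the factor whose locus drives the reporter, was counted 2 times in stem cells, 8 times in secretory and 16 times in absorptive precursors, and 1, 0 and 1 times in nIELs, iIELs and B cells. Its level was 29.0 CPM (3.51 to 105) in stem cells, 62.2 (26.8 to 123) in secretory and 105 (60.3 to 171) in absorptive precursors. The order of the point values ran from stem cells to absorptive precursors, but all 3 intervals overlapped, and neighbours in the order did not differ beyond counting error (stem cells over secretory precursors 0.466, 0.0482 to 2.33; secretory over absorptive precursors 0.590, 0.219 to 1.46). The fold of all subclusters over lymphocytes was 18.7 (4.67 to 162), and with the clusters as listed 8.98 (3.39 to 29.9). That 19 of 106 sorted epithelial cells held Tcf7l2 mRNA is a count in cells chosen for little or no history of Tcf4 Cre, and cells outside that sort were not measured.

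Tcf7, known for its role in T cell fate and memory, ran the other way, with 43 UMIs in nIELs, 19 in iIELs and 0 in B cells, against 2, 1 and 2 in stem cells, secretory precursors and absorptive precursors. Its level was 179 CPM (130 to 241) in nIELs and 103 (61.8 to 160) in iIELs, and between 7.77 and 29.0 in the subclusters. Lymphocytes therefore held 8.63-fold more Tcf7 (3.51 to 27.5). The 5 epithelial cells with a Tcf7 UMI all held epithelial markers too, and 1 of them held a T cell marker.

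Lef1, which can activate or repress with different partners, was found among assigned cells in IELs alone, with 24 UMIs in 16 nIELs and 7 UMIs in 7 iIELs, and with 0 in each epithelial subcluster and in B cells. None of the 106 cells of the epithelial subclusters had a Lef1 UMI, which allows a share of up to 2.83% of cells with a UMI (3 counts) and says nothing of cells that express it below detection. Its level was 100.0 CPM (64.1 to 149) in nIELs and 37.8 (15.2 to 77.9) in iIELs. Taking 3 counts for the epithelial 0, Lef1 was at least 7.20-fold lower in the epithelium than in lymphocytes, and the interval of the fold, which also covers the counting error of the 31 lymphocyte UMIs, reached down to 5.51-fold.

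**Figure D3:**
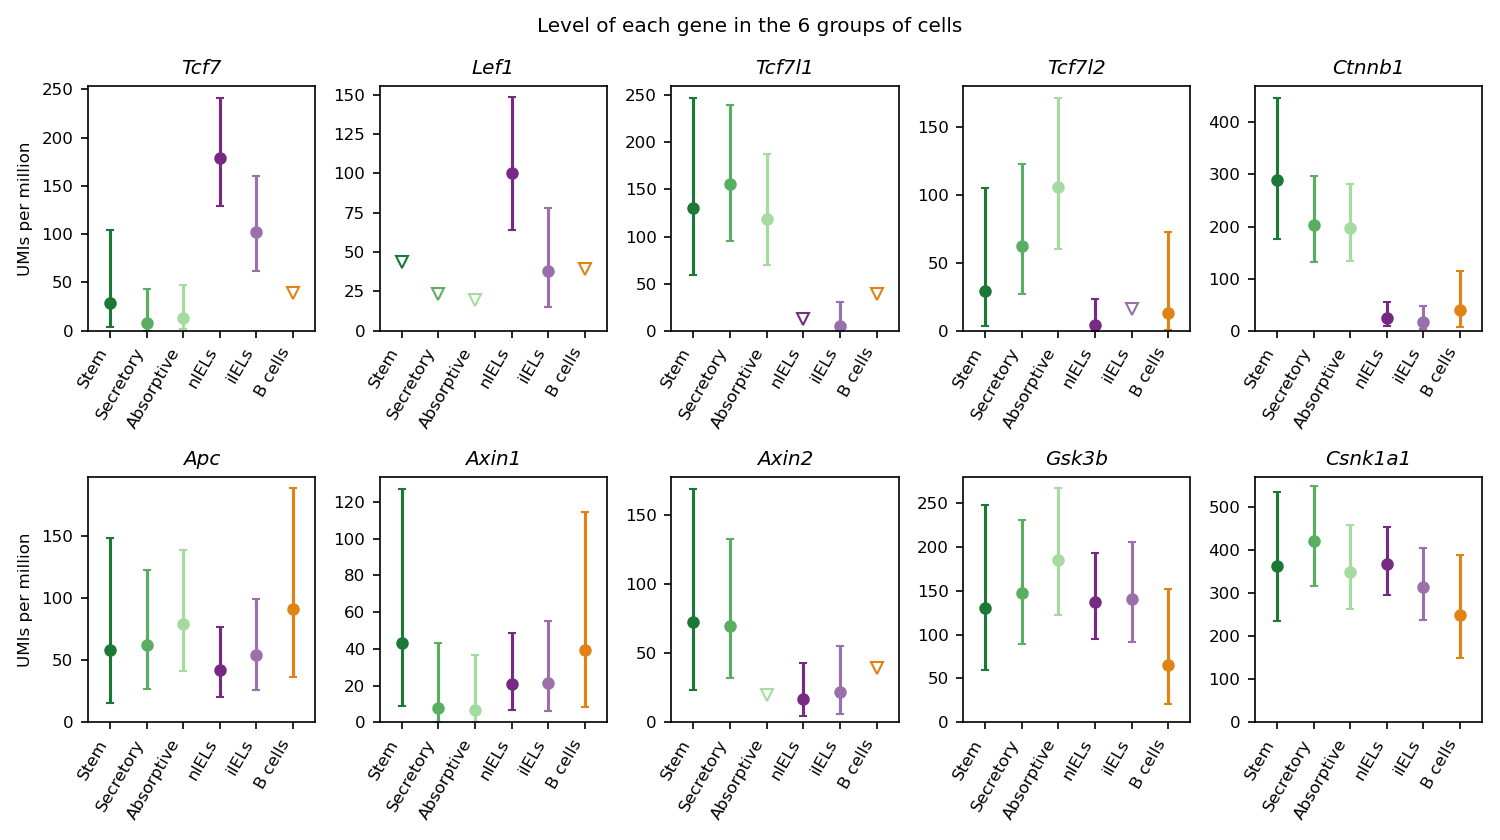
Each panel gives the level of 1 gene, in CPM, in the 3 epithelial subclusters (green), nIELs and iIELs (purple) and B cells (orange), with 95% Poisson intervals. Open triangles mark a count of 0 and stand at the level that 3 counts would give. Tcf7 and Lef1 are highest in nIELs, at 179 and 100.0 CPM, Tcf7l1, Tcf7l2 and Ctnnb1 are higher in the subclusters than in lymphocytes, and Gsk3b and Csnk1a1 are near the same height in most groups.

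Lef1 has several annotated starts, and the TCF/LEF core letters CTTTGA were searched in RefSeq promoter windows (250 bases before to 50 after a start, build GRCm38.p6). For the members, 13 windows of 7 genes were used, and Apc and Csnk1a1 were left out of this search. The core stood on either strand in 2 of the 13 windows, beside 16.0% of all 32851 windows, so the members searched did not hold it more often by count. The window printed below is the inner Lef1 start at chr3:131156044-131156343 on the plus strand, shown because it alone of the 13 windows had 2 matches. These begin 180 and 120 bases before the start and are in capitals (TCAAAG is the core read from the other strand).
Lef1 inner start: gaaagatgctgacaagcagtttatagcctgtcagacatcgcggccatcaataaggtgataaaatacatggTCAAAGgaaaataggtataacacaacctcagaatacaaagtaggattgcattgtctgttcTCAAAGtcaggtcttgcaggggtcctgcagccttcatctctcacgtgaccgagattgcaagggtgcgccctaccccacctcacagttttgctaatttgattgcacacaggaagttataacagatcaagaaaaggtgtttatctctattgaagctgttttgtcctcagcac
The remaining window with a match was that of Gsk3b, 77 bases before its start. A match is a description of letters and no evidence of binding.

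Ctnnb1 (chr9:120929216-120960507, plus strand, GRCm38), which encodes beta-catenin, was higher in the epithelium in all 3 subclusters. It was counted 20 times in stem cells, 26 times in secretory and 30 times in absorptive precursors, against 6, 3 and 3 times in nIELs, iIELs and B cells. In CPM the subclusters stood at 290 (177 to 447), 202 (132 to 296) and 198 (133 to 282), and the lymphocyte groups at 25.0, 16.2 and 39.1, so the lowest lower limit in the epithelium lay above the highest lymphocyte upper limit of 114. The fold over lymphocytes was 9.10 (4.92 to 18.4), and it remained called in 10 of 10 alternatives, between 3.78 and 9.82. With clusters as listed it was 4.69, since 16 of the 19 Ctnnb1 UMIs of the iIEL cluster lay in the shared cells.

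Beta-catenin also works outside the nucleus, as the link between E-cadherin and the cytoskeleton, and its junction partners were higher in the epithelium too. All 4 of the 4 listed junction genes were called higher there (median fold 9.48), beside 22.2% of all 6172 genes tested. Cdh1 is also a gene of the epithelial marker list. Jup and Ctnnd1 reached the minimum of UMIs mainly through their epithelial counts. The count of higher junction genes thus partly follows from the minimum. Cdh1 (E-cadherin) was 5.15-fold higher (3.24 to 8.46), Ctnna1 (alpha-catenin) 6.52-fold (3.53 to 13.0), Jup (plakoglobin, a close relative of beta-catenin) 38.8-fold with 27 UMIs against 1 (6.39 to 1588), and Ctnnd1 (p120 catenin) at least 12.4-fold, with 26 UMIs against 0.

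Of the destruction complex, no member was called between epithelium and lymphocytes. Apc, its large scaffold, had 4, 8 and 12 UMIs in stem cells, secretory precursors and absorptive precursors and 10, 10 and 7 in nIELs, iIELs and B cells, which gave 68.7 CPM (44.0 to 102) in the epithelium and 53.8 (35.5 to 78.3) in lymphocytes, a fold of 1.28 (0.705 to 2.30). Axin1 had 5 UMIs in the epithelium and 12 in lymphocytes, a fold of 0.598 (0.165 to 1.82), and its depth showed no order of groups. Gsk3b, the kinase that marks beta-catenin, had 160 CPM (121 to 208) in the epithelium and 128 (98.2 to 163) in lymphocytes, a fold of 1.26 (0.862 to 1.83). Csnk1a1, the kinase that acts before Gsk3b, was the most counted member, with 132 epithelial and 165 lymphocyte UMIs, and its fold of 1.15 (0.907 to 1.45) left no room for a 2-fold difference in either direction beyond counting error. Over the 6 groups Csnk1a1 ran from 248 CPM in B cells to 420 in secretory precursors, and Gsk3b from 65.2 in B cells to 184 in absorptive precursors. In secretory precursors 25 of 32 cells held Csnk1a1 (78.1%), beside 54 of all 106 epithelial cells. Their median was 1820.5 UMIs, against 995.5 in stem cells, and their Csnk1a1 fold over the other subclusters was 1.19 (0.824 to 1.70). For Gsk3b the interval of the fold over lymphocytes also lay within 2-fold, and for Apc and Axin1 it did not.

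Axin2 (chr11:108920349-108950783, plus strand, GRCm38) was the member whose UMIs were missing from 1 epithelial subcluster. This scaffold is itself a direct target of beta-catenin and is often used as a readout of Wnt activity. It had 5 UMIs in 4 stem cells, 9 UMIs in 5 secretory precursors and 0 in 42 absorptive precursors, with 4, 4 and 0 in nIELs, iIELs and B cells. The levels were 72.4 CPM (23.5 to 169) in stem cells and 69.9 (32.0 to 133) in secretory precursors, against 19.8 for 3 counts in place of the 0 in absorptive precursors. On that floor Axin2 was at least 3.58-fold lower in absorptive precursors than in the other subclusters, and the interval of the fold reached down to 2.55-fold, but its 14 UMIs were under the minimum of 20 and the gene was not among those called. With a minimum of 10 UMIs it was called, as the only member in that comparison. Over lymphocytes the epithelial fold was 2.51 (0.984 to 6.91), which did not pass. With the clusters as listed it passed (2.69, 1.08 to 7.04), but there the shared cells were counted on both sides. It also passed without cells holding markers of another class (3.45, with a lower limit of 1.25). Without the cell with the most Axin2 UMIs, which held 4, it was 1.85 (0.659 to 5.41).

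Between the epithelial subclusters no member was called in any of the 3 comparisons, each with 6 members of at least 20 UMIs. For stem cells against both precursors the background was 8.99% higher and 8.20% lower of 3013 genes, for secretory precursors against the other subclusters 7.67% and 13.7%, and for absorptive precursors 10.6% and 9.56%. The median fold of the members was 0.881, 0.887 and 1.09 in these comparisons, beside 0.975, 0.837 and 1.08 over all genes. The widest fold among tested members was that of Tcf7l2 in stem cells, 0.338 (0.0388 to 1.36), on 2 stem cell UMIs. In absorptive precursors Tcf7l2 made up 16 of 36 factor UMIs (44.4%, 27.9 to 61.9), against 2 of 13 in stem cells (15.4%, 1.92 to 45.4), and stood at 2.08-fold over the other subclusters (0.889 to 5.14), and without the cell that held 5 of its 16 UMIs there it was 1.46 (0.563 to 3.84). Without cells that held markers of another class it was 2.49 (1.01 to 6.34) and passed. The absorptive precursors held 32 of the 33 T cell marker UMIs of the subclusters, and Cd74, a B cell marker, was 2.38-fold higher there (1.27 to 4.58). Tcf7l1 in stem cells stood at 0.962-fold of the precursors (0.409 to 2.02) and Ctnnb1 at 1.45-fold (0.824 to 2.46). A cell of 23205 UMIs held 33.6% of all stem cell UMIs, which limits what the summed stem cell levels say of the other 31 cells. It was also 1 of the cells listed as iIELs. The deepest cell of the iIEL cluster as listed had 23205 UMIs, and that of the epithelial Pigr+ cluster 12861. Stem cell levels without this cell are not given here.

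Of the lymphocytes, nIELs held more Lef1 UMIs than iIELs, a difference close to the limit of the counts. The fold was 2.64 (1.11 to 7.27), and Lef1 was the only member of 5 tested that was called, beside a background of 3.34% higher and 4.28% lower of 3321 genes. The call was lost in 4 of 10 alternatives: without the nIEL that held 3 Lef1 UMIs (2.32, 0.952 to 6.47), where each cell counted equally (1.64), with cells thinned to 700 UMIs (2.81, 0.752 to 14.5) and in the smaller of the 2 barcode sets, suffix X2 (1.10). Tcf7 stood at 1.75-fold in the same direction (0.996 to 3.17) and was not called, although it was with the clusters as listed (2.40, 1.39 to 4.25) and without cells holding markers of another class (2.27, 1.23 to 4.42). Gsk3b and Csnk1a1 were at 0.979 (0.568 to 1.70) and 1.17 (0.831 to 1.66), and the median of the 5 members was 1.17 beside 1.00 over all genes. Of the list of naive and memory genes 2 of 5 tested were higher in nIELs. These were Id3 at 7.91-fold (2.86 to 30.4) and Cd27 at 2.02-fold (1.04 to 4.17), and Il7r was lower at 0.434 (0.229 to 0.797). Of the effector genes 4 of 6 tested were lower, among them Gzmb at 0.170 and Gzma at 0.271. The study shows Gzma and Gzmb as markers of iIELs. Their lower level in nIELs is therefore bound up with how the clusters were named, and is no separate result.

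B cells differed from IELs in Tcf7, which was at least 3.73-fold lower there, with 0 UMIs in 47 cells against 62 in 362. It was the 1 member called of 5 tested, where 4.63% of 3844 genes were called higher and 5.44% lower. The median of the 5 members was the bound for Lef1, at most 0.536, beside 0.894 over all genes. The B cells also held 225 UMIs of T cell markers, so the missing Tcf7 was counted in a group not free of T cell RNA. Lef1 was also at 0 in B cells, but with 31 UMIs in IELs the bound was at least 1.86-fold lower and did not reach 2-fold. The other tested members had intervals that held 1, with Gsk3b at 0.470 (0.147 to 1.16), Csnk1a1 at 0.721 (0.422 to 1.17) and Apc at 1.94 (0.693 to 4.78).

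Cell by cell, the members were sparse. At least 1 UMI of Tcf7l1 or Tcf7l2 was found in 39 of 106 epithelial cells (36.8%, 27.6 to 46.7) and in 2 of 362 IELs (0.552%, 0.0670 to 1.98), the background share in cells of the other class. Conversely, Tcf7 or Lef1 was found in 64 of 362 IELs (17.7%, 13.9 to 22.0) and in 5 of 106 epithelial cells (4.72%, 1.55 to 10.7), the background share in that direction. Epithelial cells were deeper than IELs, with medians of 1606.5 against 1038 UMIs, and thinning every cell to 700 UMIs, with 93 epithelial cells and 297 IELs deep enough, brought these shares to 14.6% against 0.374% for Tcf7l1 or Tcf7l2 and to 2.19% against 12.1% for Tcf7 or Lef1. The direction held on both scales. Of the epithelial cells with Tcf7l1 (27 of 106) and with Tcf7l2 (19 of 106), 7 held both. Ctnnb1 was counted in 11 of the 27 and 12 of the 19, beside 37 of all 106 epithelial cells. Whether these overlaps exceed what the depth of the cells gives was not tested. No member at all was counted in 20 of the 106 epithelial cells and in 163 of the 362 IELs, so an absent UMI in a cell says little about that cell.

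In the IELs, cells with a UMI of Tcf7 or Lef1 were poor in Gzma and Gzmb, the only granzyme genes compared here. This comparison was chosen after the values were seen. Gzma (granzyme A) was counted in 2 of the 64 IELs with Tcf7 or Lef1 (3.12%, up to 10.8) and in 116 of the 298 without (38.9%, 33.4 to 44.7), and Gzmb (granzyme B) in 6 of 64 (9.38%, 3.52 to 19.3) and 117 of 298 (39.3%, 33.7 to 45.1). The cells with Tcf7 or Lef1 were somewhat deeper, with a median of 1228 against 1004 UMIs. As summed levels the folds were 0.114 (0.0787 to 0.159) for Gzma and 0.160 (0.0983 to 0.248) for Gzmb, where 2.17% of 3319 genes were called higher and 2.74% lower. In the 64 cells Gzma had 35 UMIs, 20 of them in 1 cell, and Gzmb had 21, at most 6 in 1 cell. The intervals take each UMI as independent and leave out this spread between cells. The difference was not only that between the clusters. Among nIELs alone, Gzma had 0 UMIs in 44 cells with Tcf7 or Lef1 and 294 UMIs, in 23 cells, among 143 without, and among iIELs it was found in 2 of 20 and in 93 of 155. Gzmb was found in 2 of 44 and 26 of 143 nIELs, and in 4 of 20 and 91 of 155 iIELs.

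Genes of the naive and memory state did not all rise in the same cells. Il7r, the interleukin-7 receptor, was 2.80-fold higher (1.52 to 5.07) and was found in 12 of 64 against 16 of 298 cells, with the same direction in nIELs (3.06, on 18 UMIs in all) and iIELs (4.11). Ly6c2, a surface protein of memory T cells, was 3.37-fold higher (1.67 to 6.79), a call that was lost without the cell with the most Ly6c2 UMIs, and also among the barcodes with suffix X1 (interval 0.569 to 3.60), which hold 332 of the 362 IELs. Within clusters Ly6c2 was at 5.24 (2.01 to 15.2) in nIELs and 1.71 (0.310 to 6.34) in iIELs. Id3 was 2.16-fold higher (1.11 to 4.09), a call lost without its top cell (1.57), with thinning (1.74) and with suffix X2. It was not called within nIELs, at 1.41 (0.695 to 2.76), had 2 UMIs on either side in iIELs, and was itself higher in nIELs, which made up 44 of the 64 cells. Cd27 at 1.36 (0.659 to 2.64) and Cxcr3 at 0.949 (0.376 to 2.12) had intervals that held 1. Among effector genes besides the granzymes, Prf1 (perforin) was at 0.936 (0.273 to 2.59), Tbx21 (T-bet) at 0.647 (0.162 to 1.90), and Itgae, which encodes the integrin that holds IELs to E-cadherin, at 0.801 (0.452 to 1.35). Id2 was at 0.652 (0.446 to 0.929), short of 2-fold. Cells that held both Tcf7 and Lef1 numbered 10, of which 9 were nIELs.

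**Figure D4:**
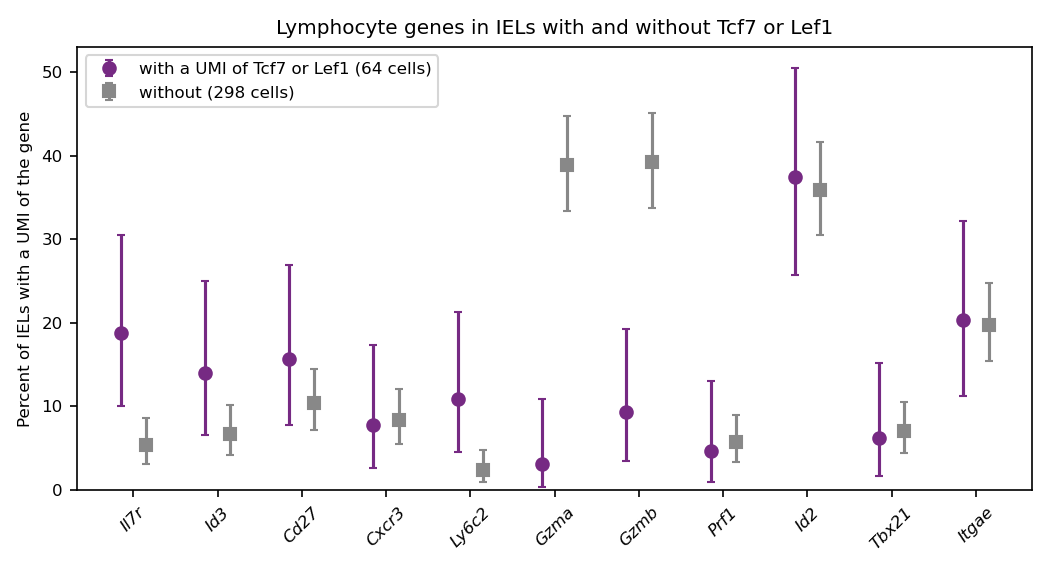
Points give the percent of IELs with at least 1 UMI of each lymphocyte gene, for the 64 IELs with a UMI of Tcf7 or Lef1 (purple) and the 298 without (grey), with exact 95% binomial intervals. Gzma and Gzmb are apart, at 3.12% against 38.9% and at 9.38% against 39.3%, while Il7r lies the other way, at 18.8% against 5.37%.

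Other genes of the pathway placed the members in context. Of 23 ligands (Wnt and R-spondin genes) 3 were in the matrix, with 5 UMIs over all these cells, and of 11 secreted and membrane inhibitors 3 were in it, with 3 UMIs, so neither list had a gene to test. Of 18 receptors 15 were in the matrix. The 3 that had at least 20 UMIs were all higher in the epithelium, which held most of their UMIs. The minimum thus favoured receptors that are high there. Over all 6172 genes tested, 22.2% were called higher and 22.0% lower. Lgr4, a receptor for R-spondins, had 27 UMIs against 0 and was at least 12.9-fold higher, the Wnt co-receptor Lrp6 was 6.94-fold higher (2.83 to 20.4), and Ryk was 6.46-fold higher (2.13 to 26.3). Cytoplasmic genes were more even, with 8 tested, 0 higher and 1 lower, which was Tnks2 (a tankyrase, which promotes the breakdown of Axin) at 0.256 (0.0773 to 0.673). Among 9 tested nuclear partners 2 were higher, the co-repressors Ctbp2 at 11.8-fold (4.66 to 38.2) and Ctbp1 at 2.18-fold (1.33 to 3.61), and 1 was lower, the histone deacetylase Hdac1 at 0.257 (0.164 to 0.389).

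Of the known targets of the pathway, members left out, 12 were in the matrix and 8 were tested. In the epithelium 6 were higher and 1 lower, with a median fold of 18.3. Over all 6172 genes tested, 22.2% were called higher and 22.0% lower. Cdx1, Cdx2, Ephb2 and Ephb3 reached 20 UMIs mainly through their epithelial counts, so the count of higher targets partly follows from the minimum. Cdx1, a homeobox gene of the gut, had 112 UMIs against 0 and was at least 53.6-fold higher, and the receptors Ephb2 and Ephb3, which sort cells along the crypt, each had 19 UMIs against 1 (27.3-fold, 4.34 to 1134). Sox9 was 16.4-fold higher (8.89 to 33.8), Cdx2 at least 20.1-fold and Ccnd1 (cyclin D1) 5.39-fold (3.25 to 9.31). Cd44, which lymphocytes also carry, was lower at 0.385 (0.179 to 0.763), and Myc was not called at 0.878 (0.375 to 1.96). Several of these genes, such as Cdx1 and Cdx2, are markers of gut epithelium in their own right, and how far their level follows Wnt signalling in these cells was not tested.

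**Figure D5:**
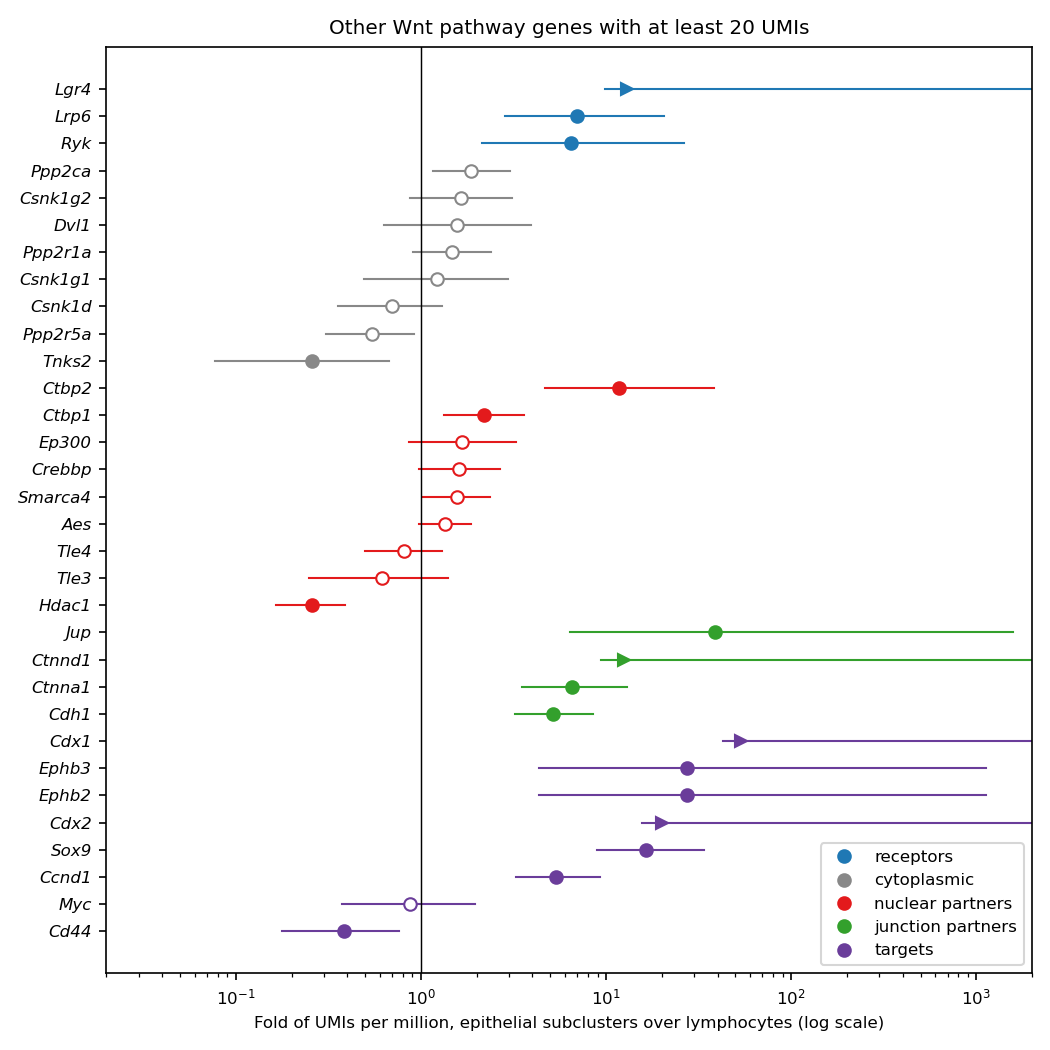
Points give the fold of CPM in the epithelial subclusters over lymphocytes for the 32 other pathway genes with at least 20 UMIs, on a log axis, grouped by list, with 95% counting intervals. Filled points were called and triangles are lower bounds against a count of 0. The 3 receptors and 4 junction partners lie to the right of 1, and of the 8 cytoplasmic genes Tnks2 alone is called.

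Within the epithelium, a few genes of the pathway lists were called, on small numbers tested. Whether they were called more often than genes at large was not tested. In stem cells against precursors, Smarca4 (the motor of a chromatin remodelling complex that beta-catenin recruits) was 3.61-fold higher (1.99 to 6.50), the kinase Csnk1g2 2.90-fold (1.15 to 7.02) and the co-activator Ep300 2.81-fold (1.06 to 7.11). Secretory precursors held less Lgr4, at 0.298 (0.0750 to 0.874), and less of the co-activator Crebbp, at 0.332 (0.113 to 0.808). Aes, a short relative of the Tle co-repressors, was also lower there, at 0.436 (0.235 to 0.764). By list, 1 of 2 tested receptors, 2 of 8 nuclear partners and 1 of 4 junction partners were lower, beside 13.7% of 3013 genes. None of 4 cytoplasmic genes and 4 targets was called. Absorptive precursors held more of the co-repressor Tle4, 2.61-fold (1.16 to 6.23), and less Sox9, at 0.481 (0.315 to 0.721), and Smarca4, at 0.493 (0.246 to 0.933). Of 8 tested nuclear partners 1 was higher and 1 lower, and of 4 targets 1 was lower. Over all 3013 genes 10.6% were higher and 9.56% lower. None of 2 receptors, 4 cytoplasmic genes and 4 junction partners was called. Among lymphocytes, Smarca4 was the 1 pathway gene besides Lef1 called in nIELs against iIELs (2.24, 1.06 to 5.15). It was 1 of 6 tested nuclear partners, beside 3.34% of 3321 genes called higher. In B cells against IELs, Ccnd1, with 20 UMIs against 0, was at least 37.0-fold higher, and the co-repressor Tle3 was 3.41-fold higher (1.23 to 8.88). These were 1 of 2 tested targets and 1 of 7 nuclear partners, beside 4.63% of 3844 genes called higher. The B cell group also held 64 UMIs of myeloid markers, 63 of them from Lyz2 (17.5-fold over IELs, 10.4 to 30.5). Which of its cells held Ccnd1 was not tested.

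The genes most like each member in their pattern over the 6 groups were found by Pearson correlation of log2 levels (CPM plus 50) among 6171 genes. With 6 points such values are high for many genes, and for Tcf7l1 33 genes exceeded 0.99. Closest to Tcf7 stood Sf3b5 (0.993), Zdhhc20 and Rsbn1l, and closest to Lef1 stood Klrk1, Gzmc and Klra9 (0.997), of which Klrk1 and Klra9 encode receptors of the killer cell lectin-like family. Tcf7l1 was most like Deptor (0.998), Oit1 and Rbm47, all highest in secretory precursors as Tcf7l1 was. Tcf7l2 was most like Igsf5 (0.997), Rock2 (0.992) and Sult1d1 (0.992), all highest in absorptive precursors. Ctnnb1 was most like Magt1 (0.999), Mtus1 (0.997) and Smpd3 (0.996), which were highest in stem cells. For the complex, Apc was most like Entpd6 (0.979), Gnai3 and Dlst, Axin2 like Enox2 (0.985), Vps35 and Sec62, Gsk3b like Dnm1l (0.997), Phrf1 and Brd7, and Csnk1a1 like Spry2 (0.983), Irak1 and Zranb1.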

How the data were processed

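The study sorted crypt cells, mixed in human cells, and made Drop-seq libraries. Per the labels and the study's methods, reads were aligned with STAR 2.5.0 to mm10 and hg19 (Picard 1.137 was also used), and the deposited matrix holds the authors' UMI counts per gene and cell. It was used as deposited, with cluster names from the study's own list of cells. Barcodes end in 1 of 2 suffixes, which no source ties to a pool or sort, so all cells were 1 sample. Barcodes without a cluster entered no comparison. The 2 sets shared 0 barcodes, and 282 pairs within a set differed at 1 base. In 38 of these pairs both barcodes were assigned, and an alternative that joined such barcodes left 493 of the 516 assigned cells. Shares of cells count each barcode as 1 cell. Doublets were not called, and instead 9 epithelial cells and 42 lymphocytes with markers of another class were left out in an alternative chosen after seeing the data.

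Counts were summed per group and given per 1000000 UMIs (CPM) (Python 3.11.15, scipy 1.17.1), with exact Poisson, Clopper-Pearson and conditional binomial 95% intervals, a count of 0 taken as 3 counts. Scripts were tested on simulated data. The members and gene lists were chosen with earlier results of these data known. Pathway genes were named by a rule, the 3 largest called folds in each direction per comparison, and others in a list of few calls were named after their values were seen.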

Additional observations from a re-analysis of the deposited data

Results flagged for a closer look

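Member transcripts were also counted in the 601 barcodes without a cluster, which the comparisons did not use and which had a median of 212 UMIs and 36.8% mitochondrial UMIs. There Csnk1a1 had 46 UMIs, Tcf7 and Ctnnb1 11 each, Tcf7l2 8, Apc, Axin1, Tcf7l1 and Gsk3b 5 each and Axin2 4, all above the 3 counts that a count of 0 allows. Lef1, with 2, was not. Of the 26 Tcf/Lef UMIs in these barcodes 13 came from Tcf7 and Lef1 and 13 from Tcf7l1 and Tcf7l2.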

How the results depend on the processing

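No paired analysis was possible because all cells form 1 sample without replicate numbers. No called fold turned direction under an alternative that gave a value. The numbers of members called moved as follows. In epithelial cells against lymphocytes 1 was higher and 0 lower, both in the barcodes with suffix X2 (27 and 35 cells) and with cells thinned to 700 UMIs, which leave fewer UMIs to test. In nIELs against iIELs 0 were higher with suffix X2, with thinning, with a mean over cells, and without the cell with the most UMIs of the gene, 2 were higher with the clusters as listed and without cells holding markers of another class, and 1 was lower as listed (Ctnnb1 at 0.370, against 1.54 and not called without the shared cells). In B cells against IELs 0 were lower with suffix X2 and with thinning, and 3 with a mean over cells. In absorptive precursors 2 were higher with a mean over cells and 1 without cells holding markers of another class, and 1 was lower with a minimum of 10 UMIs or none. In stem cells 2 were lower with a mean over cells. That mean has no interval, so its calls rest on size alone.

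Tcf7 and Lef1 made up 87.2% of the factor UMIs of the IELs as listed and 100.0% with suffix X2, where Tcf7l1 and Tcf7l2 made up 100.0% in the epithelium. At 2 UMIs or more, 4.70% of IELs held Tcf7 or Lef1 and 14.2% of epithelial cells Tcf7l1 or Tcf7l2, and with thinning 12.1% and 14.6%. The Il7r fold was 10.2 with suffix X2, and its call was lost there and with thinning, while the Gzma and Gzmb calls were kept in 9 of 9 alternatives.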
